A study of Bos taurus with 48 samples.

Results

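The genes described here are imprinted genes linked to fetal growth: H19, DLK1, PEG3, MEST, NNAT, MEG3, PLAGL1 and SGCE. A gene entered when its symbol was the gene name of a probe on the array, or stood in parentheses in the probe's description. Of the 8 genes named, 6 were found, each with 1 probe out of 21475, and no probe matched MEG3 or PLAGL1, which are not analysed here. The probe of H19 carries an older locus name in the files and was matched through its description. Each probe was spotted at 2 places on every array.

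In imprinted genes, marks set in the germ line leave the copy from 1 parent active and the other silent. Many such genes act on growth before birth, and several are known to be silenced in most tissues soon after it. MEST, PEG3, NNAT, DLK1 and SGCE are expressed from the paternal copy in mammals, whereas H19, a long noncoding RNA, is expressed from the maternal copy. The arrays measured total RNA from both copies, so the parental origin of the signal was not measured.

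RNA of longissimus muscle, the long muscle of the back, was measured on 48 arrays with 2 dyes, and the 2 channels of an array held animals of the 2 arms of an experiment. In the developmental experiment Piedmontese crosses were set against Wagyu crosses, both by Hereford per the study's methods, at 60, 135 and 195 days of gestation, at birth, and at 3, 7, 12, 20, 25 and 30 months of age. The fetuses were 2 at 60 days, 5 at 135 days and 5 at 195 days, there were 6 newborn calves, and 6 to 8 of the same 9 post-natal animals were sampled at each later age. In the diet experiment Belmont Red cattle on a weight loss diet were set against others on a weight growth diet at time 0 (4 and 4 animals), time 1 (3 and 4) and time 2 (2 and 2), and the study's methods describe deprivation followed by re-alimentation. The labels give no dates for these times. At 60 days each cross was 1 fetus measured on 3 arrays.

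The tissue label was checked against marker genes. In 1 of the 135-day fetuses, the Piedmontese cross GP672, measured in 1 channel, the markers went against the label. Its mean log2 intensity over 6 markers of mature muscle fibres was 9.27, against 13.78 to 14.49 in the other 4 fetuses of that age. Over 4 adipocyte markers it was 13.82, against 8.12 to 9.57. For MYOD1, a transcription factor of the muscle lineage, its level was 8.97 and those of the other 11 fetuses were 14.31 to 14.88. Where stated below, results are therefore also given without this animal, and all other developmental results include it. Over all 96 channels the 6 fibre markers were well above background, apart from TTN in 1 fetal channel.

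The probes for H19, MEST, DLK1 and SGCE are printed because the differences below are those of these stretches of RNA alone. The capitals in the H19 probe mark AATAAA, the common polyadenylation signal, which places it near the 3′ end of the RNA. The capitals in the SGCE probe mark a stop codon that follows 18 open codons of the probe. The probes of MEST and DLK1 are given by their first 30 bases, with no part marked.
H19: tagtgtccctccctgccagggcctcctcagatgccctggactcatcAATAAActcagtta
SGCE: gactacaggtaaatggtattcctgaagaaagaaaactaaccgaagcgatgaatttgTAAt
MEST: agacaggaaagttccagaaacttaaagaac
DLK1: ctcccctctcctgcctttgcgctgccgtgt
The sequences come from the deposited array files, which name no genome build, so no positions are given.

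All levels below are normalised log2 intensities, 1 value per animal and time, and a difference of 1 is a factor of 2. Levels of different probes cannot be set against each other. All 6 probes were well above background in all 96 channels, and none was saturated. Differences are limma estimates ± SE. A gene is called when the p-value adjusted over 14644 genes is under 0.05.

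From fetal to post-natal muscle 5 of the 6 members fell, and MEST fell most. MEST codes for an enzyme-like protein of the endoplasmic reticulum that is widely expressed in the mesoderm of the embryo. Its animal means were 13.81 to 15.34 in 12 fetuses (median 14.46), 9.45 to 10.98 in 6 newborn calves (median 10.31) and 8.73 to 9.78 in 9 post-natal animals (median 8.93). Every fetus lay above every calf, and the 3 stages overlapped only between newborn and post-natal animals. The post-natal minus fetal difference was -5.66 ± 0.13 (adjusted p = 4.43e-36), a 50.4-fold fall. Over the 11 settings other than leaving out an animal the difference of MEST ran from -6.02 to -5.10. The raw signal of its probe was 266 times the local background in the median fetal channel and 5.13 times in the median post-natal channel.

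NNAT codes for a small proteolipid of the endoplasmic reticulum that resembles the regulators of the calcium pump. It ranged from 9.87 to 14.23 in the fetuses, from 8.94 to 9.20 at birth and from 9.52 to 10.22 after it. The fetal and post-natal ranges overlapped through 1 fetus of 195 days, GW067. The difference was -2.76 ± 0.17 (adjusted p = 4.61e-20), a 6.79-fold fall.

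SGCE, the epsilon member of the sarcoglycans, membrane proteins of the dystrophin complex, lay between 10.19 and 11.21 in the fetuses and between 8.37 and 8.67 after birth, without overlap. It fell by 2.22 ± 0.08 on the log2 scale (adjusted p = 2.59e-28). DLK1, a membrane protein related to the Notch ligands that holds back fat cell formation and is known for its part in muscle growth in sheep, lay between 15.86 and 18.00 before birth and between 14.99 and 15.59 after it, also without overlap. Its lowest fetus was GP672, and the next was 16.36. DLK1 fell by 2.06 ± 0.12 (adjusted p = 2.14e-20), or by 2.16 ± 0.09 without GP672. Over the 11 settings other than leaving out an animal its difference ran from -2.20 to -1.56. The share of all genes that separate fetuses from newborn or post-natal animals, as MEST, SGCE and DLK1 do, was not counted.

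The other members changed less. H19 lay between 16.73 and 17.87 in the fetuses and between 15.53 and 17.76 after birth, and these ranges overlapped widely. Its lowest fetus was again GP672, without which the difference was -0.96 ± 0.16. With all fetuses it was -0.90 ± 0.17 (adjusted p = 3.69e-06), a 1.86-fold fall, but this call was lost when each channel was only centred on its median (-0.22, adjusted p = 0.502). PEG3, a zinc finger protein of the nucleus, lay between 13.23 and 14.91 before birth and between 13.94 and 14.15 after it. Its difference of -0.28 ± 0.14 was not called (adjusted p = 0.0705, 95% confidence interval -0.56 to 0.01). With slide as a random block PEG3 was called (-0.32, adjusted p = 0.0231), as it was without GP012, GW067 or GW625 (adjusted p = 0.0276 to 0.0355), and with median centring its sign turned (0.20, adjusted p = 0.496).

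**Figure D1:**
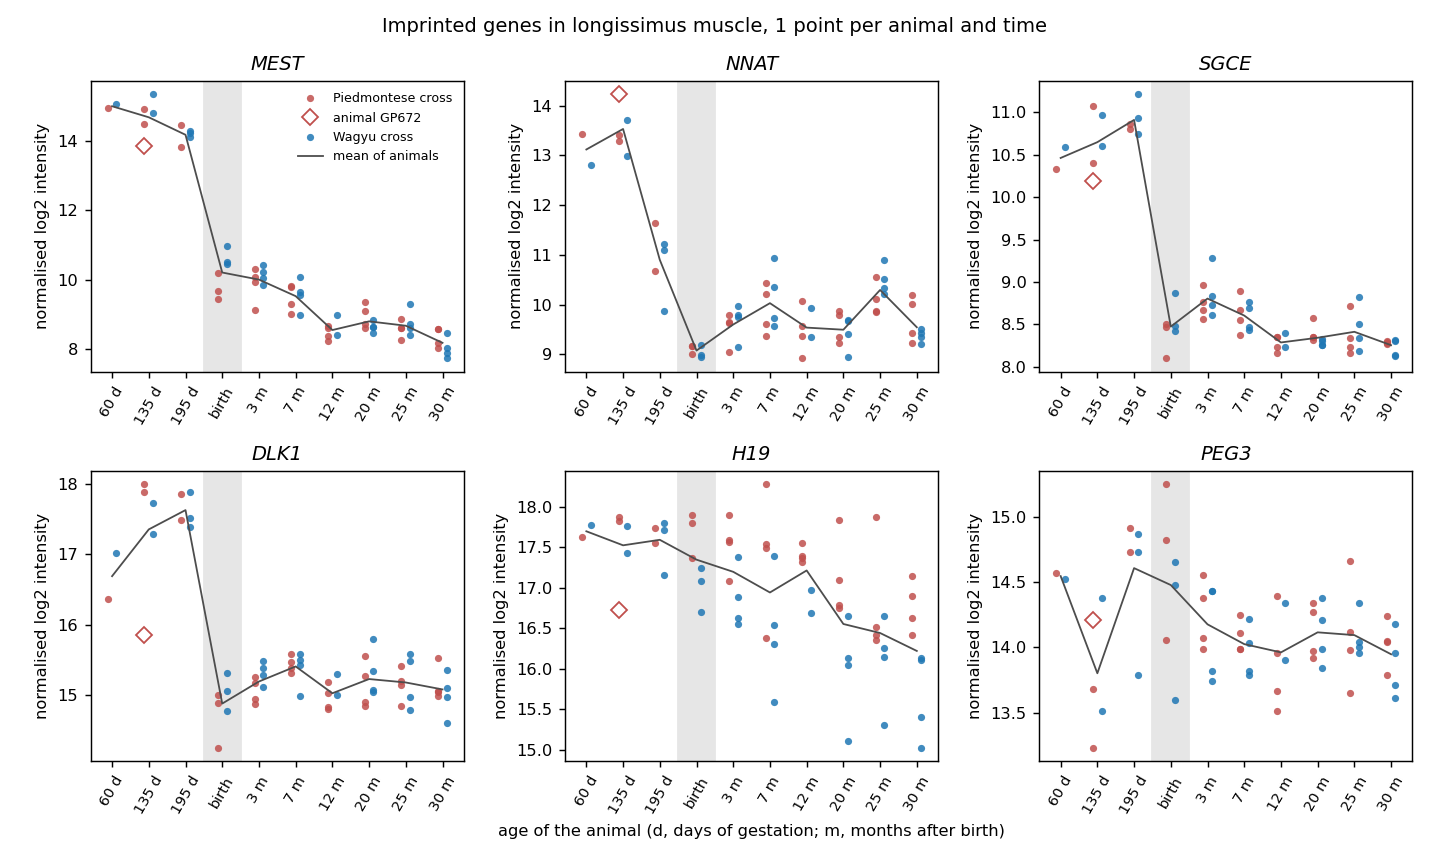
Normalised log2 intensity of the 6 genes (y) at 10 ages, equally spaced and not to scale (x), with 1 point per animal, the mean of the animals as a line, birth shaded and the 135-day fetus GP672 as a diamond. MEST, SGCE and DLK1 drop between 195 days and birth, NNAT already drops between 135 and 195 days, and H19 and PEG3 overlap between all stages.

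These 5 of 6 have to be read against the array as a whole, since 78.9% of all genes were called between fetal and post-natal muscle and 38.5% were called lower. The sizes stand further out than the count: the difference of MEST was at percentile 0.0376 of all genes, NNAT at 1.10, SGCE at 2.49, DLK1 at 3.10, H19 at 15.0 and PEG3 at 33.5. Fetal and post-natal arrays lay on different slides, so slide and stage cannot be told apart. The slide was also fitted as the random block in place of the animal. The differences then were -5.63 for MEST, -2.75 for NNAT, -2.21 for SGCE, -2.07 for DLK1 and -0.87 for H19. All 5 were called, but this fit cannot separate slide from stage and leaves repeat samples of an animal unmodelled.

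Markers of the cell types in muscle moved with the same comparison. Of the marker genes tested, 5 of 5 for fibroblasts were lower after birth (median -2.84), as were 5 of 5 for proliferating cells (median -2.03), 3 of 3 for blood (median -5.91), 2 of 3 for myoblasts and satellite cells (median -1.05) and 2 of 3 for endothelium (median -0.66, with the third higher). Higher were 5 of 6 for mature fibres (median 2.28), 4 of 4 for adipocytes (median 1.56) and 4 of 4 for immune cells (median 1.06). Without GP672 the medians were 2.13 for fibres and 1.86 for adipocytes with the same counts, and 3 of 3 myoblast and satellite cell markers were lower. The mean level of the fibroblast markers was 13.49 to 14.64 in fetuses, 10.75 to 11.76 in calves and 10.73 to 12.83 later. That of the proliferation markers was 8.80 to 10.47, 6.88 to 7.16 and 6.80 to 7.99, and CCNB1 and CCNA2 were well above background in 0 of the 6 newborn channels. In whole muscle, fewer cells of a type and less RNA per cell cannot be told apart, and the part of these shifts in the fall of the members was not tested.

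The steps between neighbouring stages separate the members. From 60 to 135 days 0 of 6 were called, where 15.5% of all genes were. DLK1 differed by 0.70 ± 0.27 (adjusted p = 0.0665) and PEG3 by -0.72 ± 0.31 (adjusted p = 0.113). Without GP672, DLK1 was higher at 135 days by 1.00 ± 0.21 (adjusted p = 0.000215) and PEG3 lower by 0.86 ± 0.30 (adjusted p = 0.0389). At 135 days DLK1 was 17.29, 17.73, 17.89 and 18.00 in 4 fetuses and 15.86 in GP672, and at 60 days it was 16.36 and 17.02. The 60-day values rest on a single fetus per cross.

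Between 135 and 195 days NNAT was the member that fell. The 5 fetuses of 135 days had 12.99, 13.30, 13.42, 13.72 and 14.23, and those of 195 days had 9.87, 10.68, 11.10, 11.22 and 11.64. The ages did not overlap, and the share of all genes separated in this way was not counted. The difference was -2.56 ± 0.28 (adjusted p = 1.13e-09), or -2.39 ± 0.29 without GP672, the highest value. On each of the 3 slides that hold both ages the difference lay between -3.40 and -2.09. Lower calls made up 12.4% of all genes in this step, and NNAT was at percentile 0.0785. Of the markers, 5 of 5 for proliferating cells were lower (median -0.58), 4 of 6 for mature fibres higher (median 1.29, and 0.81 without GP672), 2 of 4 for adipocytes lower (median -2.20, and -1.42 without GP672) and 1 of 5 for fibroblasts lower. Their part in the fall of NNAT was not tested.

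PEG3 was higher at 195 than at 135 days by 0.82 ± 0.24 (adjusted p = 0.00794), where 10.8% of all genes were called higher. Its levels were 13.23, 13.51, 13.68, 14.21 and 14.38 at 135 days and 13.79, 14.73, 14.73, 14.87 and 14.91 at 195 days, with 1 fetus (GW067) within the earlier range. Without GP672 the difference was 0.97 ± 0.24. The call was lost with slide as a fixed block (0.77, adjusted p = 0.081), with median centring (0.94) and without fetus GW625 (0.61, adjusted p = 0.122). MEST at -0.58 ± 0.22 was not called in this step (adjusted p = 0.0523) and was called without GP672 (-0.75 ± 0.22, adjusted p = 0.0113), without GP041B (-0.72, adjusted p = 0.0419) and without GW780 (-0.71, adjusted p = 0.0405).

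From 195 days to birth 4 of the 6 members fell, and for MEST, DLK1 and SGCE this was the largest of the steps compared. MEST was 13.81 to 14.44 in 5 fetuses and 9.45 to 10.98 in 6 calves, a difference of -3.95 ± 0.21 (adjusted p = 5.28e-21). DLK1 was 17.39 to 17.89 and then 14.25 to 15.32, a difference of -2.78 ± 0.19 (adjusted p = 4.46e-17). SGCE went from 10.74 to 11.21 down to 8.10 to 8.87, a difference of -2.42 ± 0.13 (adjusted p = 6.17e-21), and NNAT from 9.87 to 11.64 down to 8.94 to 9.20, a difference of -1.87 ± 0.27 (adjusted p = 3.75e-08). For these 4 genes every calf lay below every 195-day fetus, and the share of all genes separated in this way was not counted. H19 (-0.25 ± 0.26, adjusted p = 0.403) and PEG3 (-0.17 ± 0.22, adjusted p = 0.514) were not called.

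Of all genes, 30.8% were called lower at birth than at 195 days. Both ages shared 3 slides, and within a slide the difference was -4.21 to -3.72 for MEST, -3.03 to -2.52 for DLK1, -2.42 to -2.40 for SGCE and -2.30 to -1.11 for NNAT. The 4 calls held without each fetus and calf in turn. In the same step 5 of 5 proliferation markers, 4 of 5 fibroblast markers and 3 of 3 myoblast and satellite cell markers were lower, with medians of -1.59, -3.01 and -2.54. The same held for 3 of 3 blood markers (median -5.56) and 2 of 3 endothelial markers (median -1.52), and the part of these shifts in the falls was not tested.

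**Figure D2:**
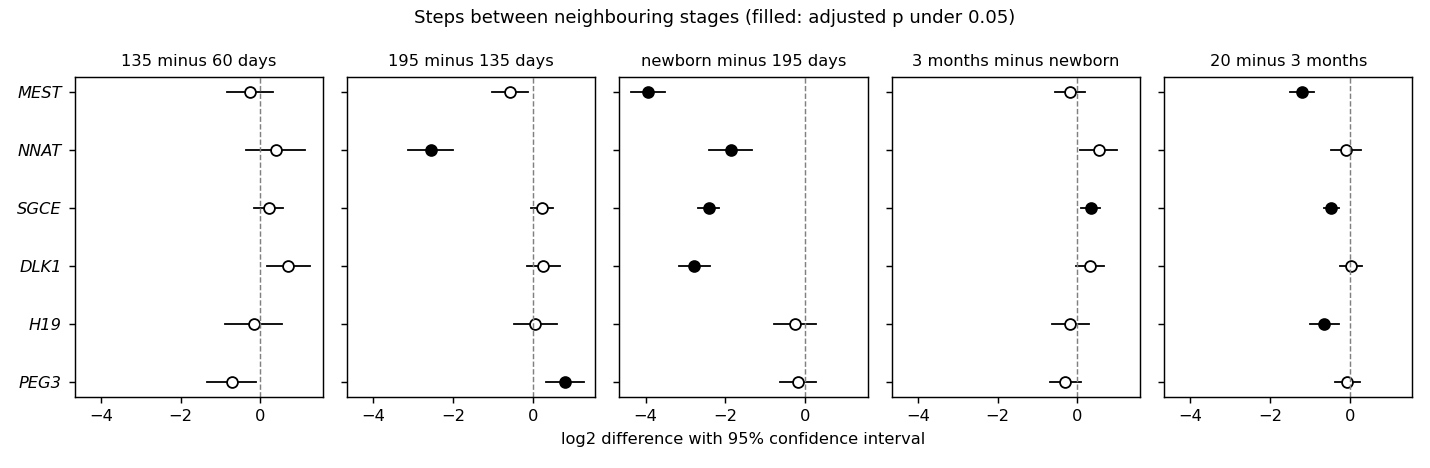
Log2 difference (x, with 95% confidence interval) of each gene (y) for 5 steps along development, filled where the adjusted p was under 0.05. The step from 195 days to birth holds the falls of MEST, DLK1 and SGCE, and NNAT falls in it and in the step before.

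From birth to 3 months SGCE alone was called, higher by 0.33 ± 0.12 (adjusted p = 0.0166), where 23.4% of all genes were called higher. It was 8.10 to 8.87 in 6 calves and 8.57 to 9.28 in 8 animals of 3 months, so the ranges overlapped. The 2 ages lay on different slides, so slide and age cannot be told apart in this step. The call was lost without GP193, GP285, GW175 or GW212 (adjusted p = 0.0516 to 0.0688) and with median centring (0.27, adjusted p = 0.299). NNAT (0.53 ± 0.23, adjusted p = 0.0561) was called without GP130 (0.61, adjusted p = 0.0389) or GW169 (0.63, adjusted p = 0.0264), with background subtraction (0.63, adjusted p = 0.0406) and without the replicate block (0.52, adjusted p = 0.0486). DLK1 (0.31 ± 0.17, adjusted p = 0.129) was not called in any of these settings. Without GP672, which enters only through the shared spread, both were called (adjusted p = 0.0477 for NNAT and 0.0379 for DLK1). In this step 4 of 5 fibroblast markers (median 1.18), 4 of 4 immune markers (median 0.81) and 4 of 5 proliferation markers (median 0.47) were higher. So were 2 of 3 myoblast and satellite cell markers (median 1.26), and the part of these shifts in the rise of SGCE was not tested. The proliferation markers CDK1, CCNA2 and CCNB1 were well above background in 8, 12 and 14 of 48 post-natal channels. The sizes of their differences are therefore not measured in full.

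Between 3 and 20 months 3 of the 6 fell, MEST and SGCE after their fall at birth and H19 with no call in an earlier step, where 13% of all genes were called lower. MEST was 9.14 to 10.43 in 8 animals at 3 months and 8.46 to 9.37 in 8 animals at 20 months, a difference of -1.20 ± 0.15 (adjusted p = 2.41e-08). Within animals the change ran from -1.79 to 0.23, and 7 of 8 were lower, GP112 being the exception. H19 was 16.55 to 17.89 and then 15.11 to 17.84, and all 8 animals were lower, by 0.05 to 1.51 on the log2 scale, so animals overlapped between ages although each moved the same way. Its difference was -0.64 ± 0.18 (adjusted p = 0.006). SGCE was lower in 8 of 8 animals and fell by 0.46 ± 0.09 (adjusted p = 0.00013). In the same comparison 3 of 5 fibroblast markers were lower (median -0.91) and 3 of 4 adipocyte markers higher (median 1.30), and their part in these falls was not tested.

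The samples of 3 and 20 months shared 4 slides, and within a slide H19 differed by -0.78 to -0.51, MEST by -1.59 to -0.79 and SGCE by -0.80 to -0.25. Without the animal as a block H19 was not called (adjusted p = 0.0639). With median centring H19 (-0.45, adjusted p = 0.933) and SGCE (-0.38, adjusted p = 0.372) were not called, under which 131 genes in all were called in place of 3865. At 30 months, on other slides, MEST lay between 7.73 and 8.59 with a median of 8.10, and H19 between 15.02 and 17.14 with a median of 16.27. DLK1 (0.03 ± 0.13), PEG3 (-0.06 ± 0.15) and NNAT (-0.10 ± 0.18) were not called between 3 and 20 months, with adjusted p of 0.732 to 0.885.

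The crosses were compared next, since Piedmontese cattle are heavily muscled and Wagyu cattle lay down fat within the muscle. Before birth 0 of 6 members were called, where 0.833% of all genes were, and the differences ran from -0.31 ± 0.20 (DLK1) to 0.44 ± 0.28 (NNAT). Without GP672, DLK1 differed by -0.10 ± 0.16 and NNAT by 0.33 ± 0.28. From 3 to 30 months 0 of 6 were called as well, where 0.0205% of all genes were. H19 had the largest difference, 0.80 ± 0.19 higher in the Piedmontese cross (adjusted p = 0.114, percentile 99.9 of all genes).

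By animal, H19 averaged 16.38, 16.80, 17.09, 17.10 and 17.76 over the ages in 5 Piedmontese crosses and 15.53, 16.24, 16.44 and 16.84 in 4 Wagyu crosses. The lowest Piedmontese cross, GP273, was sampled once, at 7 months. The crosses overlapped at 3, 7 and 25 months and did not at 12, 20 and 30 months, where 12 months had 2 Wagyu animals. These ages share animals, and the share of all genes that separate the crosses in this way was not counted. At 20 months the range was 16.75 to 17.84 in 4 Piedmontese and 15.11 to 16.65 in 4 Wagyu crosses, and at 30 months it was 16.42 to 17.14 and 15.02 to 16.13. H19 passed the threshold without GP273 (0.91, adjusted p = 0.0497), without GW245 (0.99, adjusted p = 0.0277) and without the replicate block of animals (0.86, adjusted p = 0.000633), a fit that counts repeat samples of an animal as separate. Without GP285 or GW212, the animals at the ends of the 2 crosses, its difference was smaller (0.61 and 0.58). The other 5 members differed between post-natal crosses by -0.07 to 0.03. At birth, with 3 calves of each cross and no test run, H19 was 17.36 to 17.89 in Piedmontese and 16.70 to 17.24 in Wagyu calves, and MEST was 9.45 to 10.18 and 10.45 to 10.98. The crosses were apart for both genes and overlapped for the other 4. The share of all genes that separate 3 calves from 3 in this way was not counted.

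**Figure D3:**
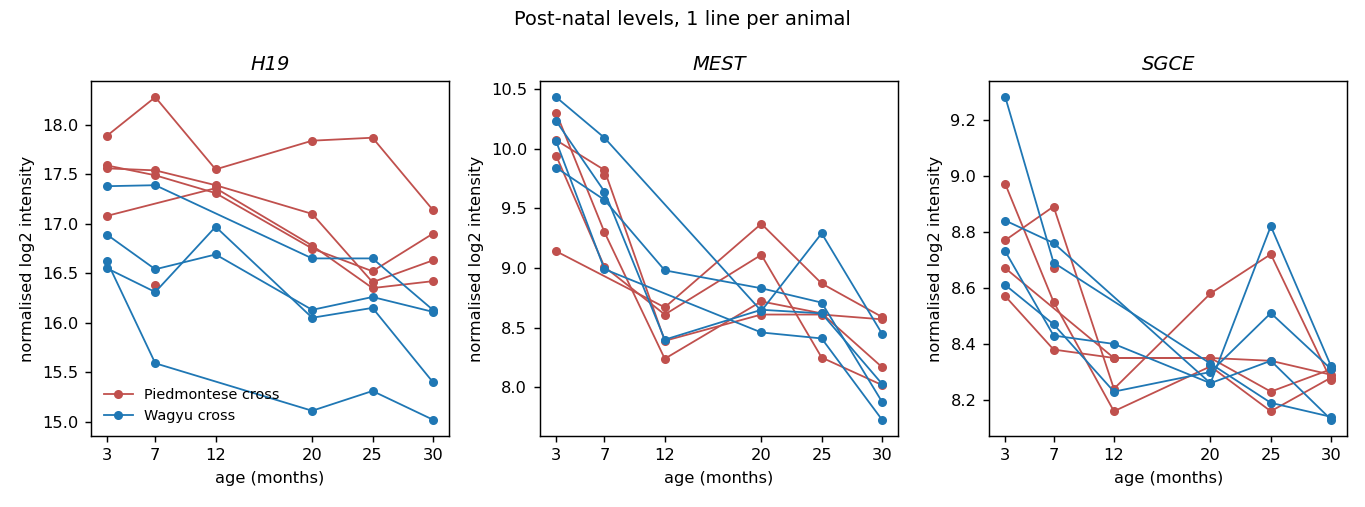
Normalised log2 intensity (y) of H19, MEST and SGCE from 3 to 30 months of age (x), with 1 line per animal and the cross by colour. H19 is lower at 20 than at 3 months in all 8 animals sampled at both ages. Its Wagyu values lie below the Piedmontese values at 12 months (2 Wagyu animals), 20 months and 30 months.

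In the diet experiment DLK1 and MEST were lower on weight loss at time 1. At time 0 DLK1 was 14.73, 15.00, 15.04 and 15.08 in the 4 weight loss animals and 15.02, 15.03, 15.24 and 15.33 in the 4 weight growth animals. At time 1 it was 13.24, 13.44 and 14.00 on weight loss and 14.99, 15.09, 15.34 and 15.35 on weight growth. The groups overlapped at time 0 and were apart at time 1, where the difference was -1.62 ± 0.19 (adjusted p = 0.000167), or 3.07-fold lower on weight loss. Lower calls at time 1 made up 8.86% of all genes, and DLK1 was at percentile 1.02. The share of all genes whose diet groups lie apart was not counted, at this time or at time 2.

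The change within animals gave the same picture for DLK1. RL24, RL27 and RL671 on weight loss changed by -1.04, -1.49 and -1.64 between time 0 and time 1, and the 4 weight growth animals by -0.04 to 0.11. The difference between these changes was -1.43 ± 0.24 (adjusted p = 0.00388), in a comparison where 5.12% of all genes were called lower. With median centring it missed the threshold (-1.07, adjusted p = 0.0571). Within weight loss DLK1 fell by 1.39 ± 0.17 (adjusted p = 0.00106), where 4.99% of all genes were called lower. Within weight growth its change was 0.04 ± 0.16 (adjusted p = 0.924), and 0 of 6 members were called there, against 3.3% of all genes.

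The call of DLK1 at time 1 held when each of the 7 animals was left out in turn (-1.85 to -1.48, adjusted p up to 0.00221). It also held in the other 10 alternative settings (adjusted p up to 0.00405). These include the log ratios within arrays, where RL24 enters 2 of the 4 pairings. Each time of the diet experiment lay on 1 slide. Slide and time cannot be told apart, while the diets at a time were compared within a slide.

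At time 2 DLK1 was 14.94 and 15.29 on weight loss and 14.42 and 15.14 on weight growth. Both weight loss animals sampled again stood higher than at time 1, RL24 by 1.29 and RL27 by 1.70, a change for which no test was run. The difference between diets was 0.37 ± 0.24 with 2 animals each (adjusted p = 1). With these numbers limma called 0% of all genes at time 2, and 223 genes had an unadjusted p under 0.05, the 6 members not among them.

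MEST at time 1 was 7.10, 7.52 and 7.71 on weight loss and 8.89, 9.5, 9.78 and 10.37 on weight growth, again without overlap. The difference was -2.19 ± 0.58 (adjusted p = 0.0184), or 4.55-fold lower on weight loss. Over the 10 settings other than leaving out an animal it was called each time and ran from -2.80 to -1.83. The raw signal of MEST in the diet channels was 1.9 to 38.9 times background, with a median of 6.65. The low levels on weight loss thus limit how well the size of this difference is measured. Neither diet's own change from time 0 was called, at -1.59 ± 0.55 within weight loss (adjusted p = 0.066) and 0.63 ± 0.50 within weight growth (adjusted p = 0.514). The change within weight loss was called without RL322 (-2.06, adjusted p = 0.0173) and with background subtraction (-1.95, adjusted p = 0.0468), and was -1.04 without RL27. The call was lost without RG157, RG166, RL24 or RL27 (adjusted p = 0.0506 to 0.0747), while the difference stayed between -2.50 and -1.74 whichever animal was left out. At time 0 the diets overlapped, from 7.44 to 10.49 on weight loss and from 8.27 to 9.68 on weight growth, and this spread exceeded that of any other member. The change from time 0 to time 1 differed between the diets by -2.22 ± 0.74, which was not called (adjusted p = 0.068) and was called without RG208 (-2.81, adjusted p = 0.0449) or RL322 (-2.69, adjusted p = 0.0197).

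At time 2 MEST was 7.60 and 8.80 on weight loss and 9.29 and 10.08 on weight growth. The groups were apart and the difference was -1.56 ± 0.75, not called in the fit by animal (adjusted p = 1). In the fit on the log ratio of each array MEST was called lower (-1.49, adjusted p = 0.0483) and H19 higher (1.10, adjusted p = 0.0264), from 4 pairings of the same 4 animals. H19 was 17.22 and 17.60 on weight loss and 16.24 and 16.38 on weight growth at time 2, and 16.05 to 17.71 against 15.47 to 17.77 at time 1.

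The remaining members were not called for diet at any time. At time 1 the differences were -0.44 ± 0.31 for PEG3 (adjusted p = 0.357), -0.35 ± 0.23 for SGCE (adjusted p = 0.317), -0.27 ± 0.22 for NNAT (adjusted p = 0.437) and -0.10 ± 0.47 for H19 (adjusted p = 0.913). PEG3 was called lower in the log ratios within arrays (-0.50, adjusted p = 0.0138), a fit in which RL24 enters 2 of the 4 pairings. The confidence interval of H19, -1.11 to 0.91, allows a change of the size seen for PEG3 or SGCE in either direction. At time 0, where 3.53% of all genes were called, 0 of 6 members were.

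**Figure D4:**
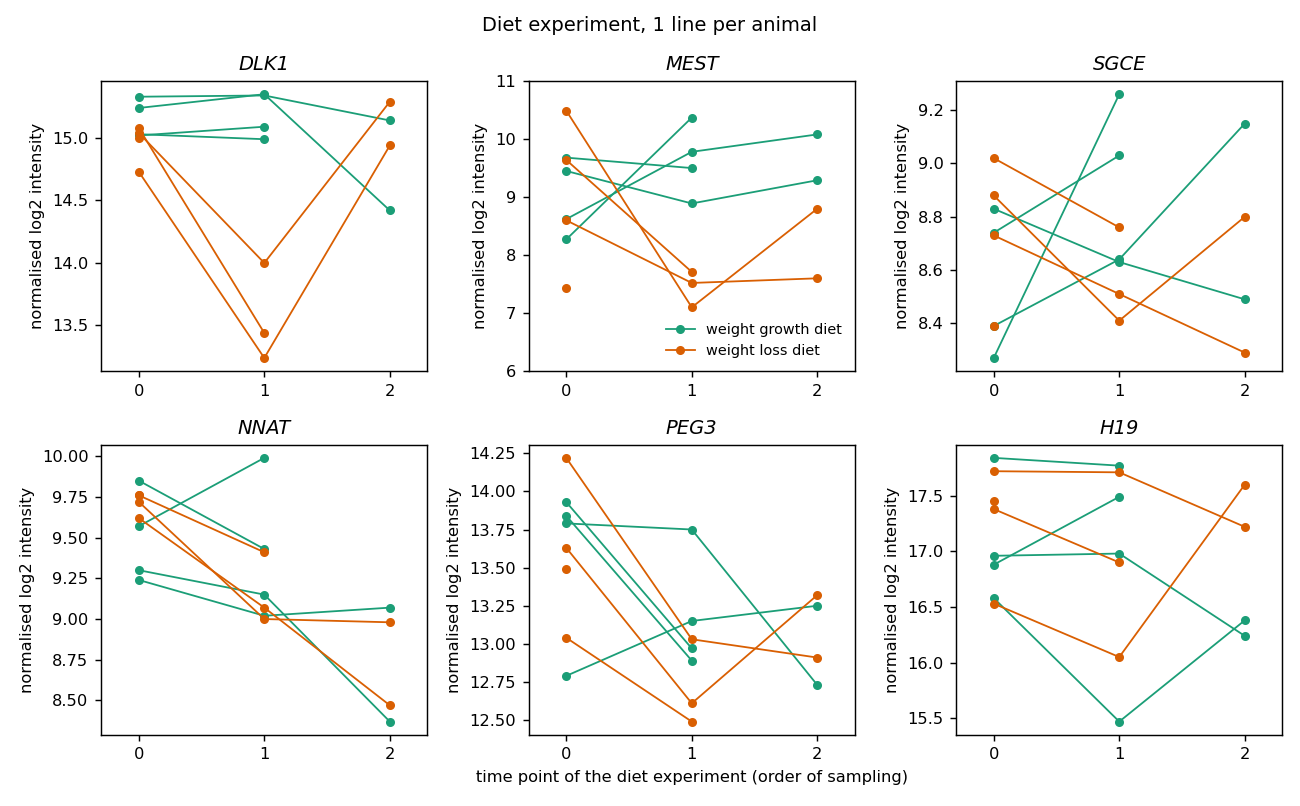
Normalised log2 intensity (y) of the 6 genes at times 0, 1 and 2 of the diet experiment (x), with 1 line per animal and the diet by colour. For DLK1 and MEST the 3 weight loss animals lie below the 4 weight growth animals at time 1, and in the other panels the diets overlap at that time.

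Some markers of other cells moved with the diet as well. At time 1, 4 of 5 fibroblast markers were lower on weight loss (median -4.02), and their mean level was 8.92 to 9.70 in the 3 animals on weight loss and 11.94 to 13.05 in the 4 on weight growth. PDGFRA, a receptor and the list's marker that is no matrix protein, was not called (-0.13 ± 0.13, adjusted p = 0.528). Of 6 mature fibre markers 4 were lower and 1, DES, higher (1.34 ± 0.32), with a median of -1.43. ACTA1, skeletal actin, stood far below the rest of that list (-6.05 ± 0.26, adjusted p = 8.15e-09). Proliferation markers were lower in 4 of 5 and endothelial markers in 2 of 3. In the 24 diet channels the proliferation markers CDK1, CCNA2, CCNB1 and CCNB2 were well above background in 3, 5, 9 and 14. The sizes of their differences are therefore not measured in full. Of 4 adipocyte markers 0 were called (median -1.32), nor was any of 4 immune (median -0.53) or 3 blood markers (median -0.46). Of 3 myoblast and satellite cell markers 1 was lower, with a median of 0.42 for that list. The part of these shifts in the difference of DLK1 and MEST was not tested.

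The genes beside the members on their chromosomes were then read. Of 16 neighbours listed, 10 had probes and 7 passed the filter, while RTL1 and DIO3, neighbours of DLK1, and ZIM2, a neighbour of PEG3, did not pass. Between fetal and post-natal muscle 5 of 7 were lower and 1 higher (median -0.35, against 0.03 over all genes). IGF2, the fetal growth factor beside H19 and expressed from the paternal copy, fell by 1.83 ± 0.07 (adjusted p = 1.79e-27), from 11.34 to 12.28 in fetuses to 10.01 to 10.27 after birth. Whereas H19 was called in 1 of the 3 later steps, IGF2 fell in all of them, by 0.77 ± 0.11 at birth, 0.61 ± 0.10 from birth to 3 months and 0.71 ± 0.08 from 3 to 20 months (adjusted p up to 2.14e-06).

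The neighbours of MEST, SGCE and NNAT were read next. Beside MEST, CPA4 was lower by 0.60 ± 0.05, but its probe was well above background in 6 of 48 post-natal channels, so this value does not measure the full difference. COPG2 at 0.11 ± 0.07 was not called (adjusted p = 0.179). Beside SGCE, CASD1 was lower by 0.22 ± 0.06 and PPP1R9A, well above background in 29 of 48 post-natal channels, by 0.35 ± 0.06. BLCAP, the gene within which NNAT lies, was higher by 0.71 ± 0.10 (adjusted p = 1.87e-08). At diet time 1 BLCAP (0.87 ± 0.23, adjusted p = 0.0174) and COPG2 (0.47 ± 0.15, adjusted p = 0.0436) were higher on weight loss and the other 5 were not called.

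Of 46 other imprinted genes listed, 34 had probes and 28 passed the filter, some of them neighbours counted above. After birth 16 were lower, 10 higher and 2 not called, with a median of -0.38 against 0.03 over all genes. Without GP672 they were 15, 10 and 3, with a median of -0.28. The largest falls were in CDKN1C, an inhibitor of the cell cycle (-3.26 ± 0.11), MAGEL2 (-2.15 ± 0.09, well above background in 34 of 48 post-natal channels) and IGF2R, the receptor that clears IGF2 (-2.14 ± 0.07). MEST thus fell more than any of the 28, and NNAT lay next after CDKN1C. Higher after birth were SNURF (1.82 ± 0.13), PON3, a lactonase (1.63 ± 0.14), and GRB10, an adaptor that dampens insulin signalling (1.48 ± 0.18). At diet time 1 NDN, SNRPN, ASB4 and DDC were lower and BLCAP and COPG2 higher, with adjusted p of 0.00357 to 0.0436.

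**Figure D5:**
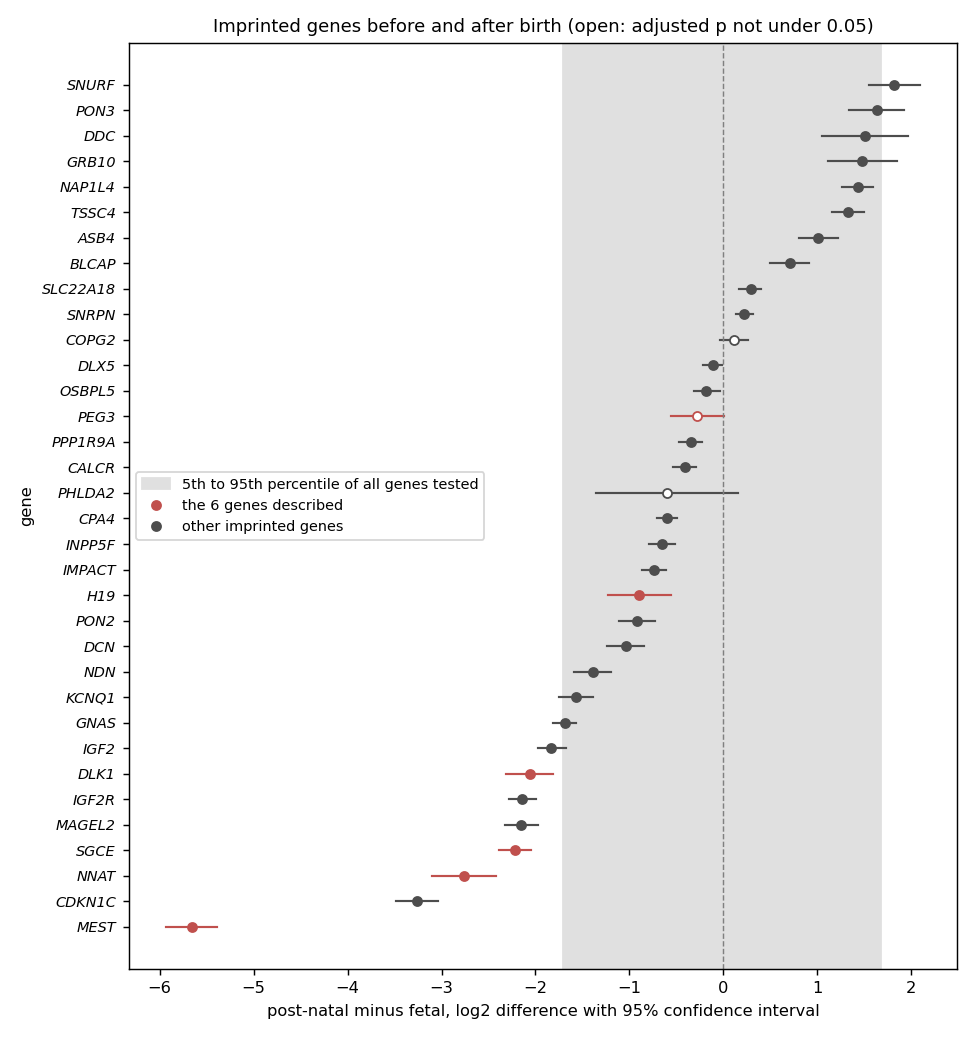
Post-natal minus fetal log2 difference (x, with 95% confidence interval) of the 6 genes and 28 other imprinted genes (y), ordered by size, over the range from the 5th to the 95th percentile of all genes. MEST lies lowest at -5.66, imprinted genes are found on both sides of 0, and COPG2, PEG3 and PHLDA2 are not called.

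Genes of the systems that the members belong to gave other patterns. Among 14 tested genes of the Notch pathway, to which DLK1 is related, 10 were lower after birth and 0 higher (median -0.83), among them NOTCH3 (-2.29 ± 0.11) and NOTCH2 (-2.14 ± 0.11). DLK2 was lower as well (-2.06 ± 0.12), with its probe well above background in 18 of 18 fetal and 4 of 48 post-natal channels, so the size of its difference is not measured in full. At diet time 1, 4 of 14 were lower and 0 higher: NOTCH1, NOTCH3, the ligand JAG1 and the target gene HEYL (-2.61 ± 0.38, adjusted p = 0.000661), named here after their values were seen. In the sarcoglycan and dystrophin complex, the partners of SGCE, 9 of 13 were higher after birth and 2 lower (median 0.95, and 0.71 without GP672). The alpha, beta and delta sarcoglycans, picked out after their values were seen, rose by 0.95 ± 0.22, 1.38 ± 0.09 and 1.15 ± 0.11, while SGCE fell. Without GP672 they rose by 0.71 ± 0.08, 1.33 ± 0.08 and 1.07 ± 0.09. All 4 tested genes of the calcium pump and its small regulators, the proteins NNAT resembles, were higher after birth, and PLN rose by 4.43 ± 0.14.

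Over the 26 conditions of cross or diet and time, MEST and SGCE had the most alike patterns among the members (Pearson r = 0.961), followed by DLK1 with SGCE (0.916) and DLK1 with MEST (0.907). PEG3 correlated with the others at 0.324 to 0.510 and H19 at 0.324 to 0.592. Of all genes, those most like MEST were CTNND1 and MBOAT2 (both 0.984) and an unnamed transcript (0.986). Those most like SGCE were MAGED1 (0.986), GPX7 (0.983) and an unnamed transcript (0.980), and those most like NNAT were POSTN (0.957) and DSC2 (0.954). DLK1 was most like ARHGEF2 (0.958), MYADM (0.957) and QSOX1 (0.952). For H19 they were PLAGL2 (0.803) and TMEM231 (0.761) with an unnamed transcript between them (0.763), and for PEG3 METTL2A (0.977), an unnamed transcript (0.976) and WIPI2 (0.974). These values are descriptions, since conditions share animals and slides. Over the 12 post-natal conditions r was 0.320 to 0.471 for the 3 genes most like DLK1 and 0.806 to 0.873 for those most like MEST. For NNAT it was 0.643 with POSTN and -0.11 with DSC2.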

How the data were processed

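The authors hybridised 2 samples per Agilent array and deposited, for each spot, mean and local background intensity per dye, flags for outliers, saturation and background, and a log10 ratio (Cy5 to Cy3), all from Feature Extraction 9.5.1. A table of these ratios for the whole series was not used.

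Intensities were corrected by normexp (offset 50), loess within and Aquantile between arrays in limma 3.58.1 (R 4.3.3), with outlier spots left out, and taken as log2. Spots were averaged per probe and probes per gene, using RefSeq names (16752 of 21475 probes matched). Probes were kept when flagged as clearly over background in 24 or more of the 96 channels, and 51.1 to 78.9% of probes were above it per channel. The number of arrays and animals limits the precision. The mean of the channels of each animal and time was fitted with limma: arm by time, dye as covariate and animal as random block (correlation 0.278 for development with 64 values, 0.144 for diet with 19), two-sided, Benjamini-Hochberg over 14644 genes. GP041A and GP041B were taken as separate animals. The scripts were tested on simulated data. Python 3.11.15 drew the figures.

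The members and lists were chosen with earlier results of these data known. The text names all members, the neighbours and other imprinted genes, the 3 genes most like each member over 26 conditions, and up to 3 genes with the largest post-natal change from other lists. Some genes that this rule would name are not reported here, and single markers and diet-responsive list genes were named after their values were seen. The alternatives were other background correction, normalisation, filter, probe, dye, block and slide settings, the deposited log ratios, and each animal left out.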

Additional observations from a re-analysis of the deposited data

Results flagged for a closer look

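Of 72 groups of 4 to 8 animals tested, 5 held an animal far from the others by Dixon's criterion, which chance gives in about 1 in 20 groups. PEG3 was 13.79 in the 195-day fetus GW067, against 14.73 in the next, and 12.79 in RG208 on weight growth at diet time 0, against 13.79. DLK1 was 14.99 in GW179 at 7 months, against 15.31, and MEST was 9.14 in GP112 at 3 months, against 9.84. SGCE was 8.58 in GP201 at 20 months, against 8.35. The groups at 60 days and those with fewer than 4 animals could not be tested.

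The response of DLK1 to diet differed between time 1 and time 0 by -1.43 (adjusted p = 0.00388, limma), lower on weight loss in 3 of 3 animals sampled at both times.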

How the results depend on the processing

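No called member changed sign under any alternative tried. The counts of members called that moved by over 1.5 times were these. With median centring of channels the counts were 1 from 135 to 195 days (2 in the main setting), 0 from birth to 3 months (1), 1 from 3 to 20 months (3) and 0 for diet by time (1). Background subtraction gave 2 from birth to 3 months (1) and 2 for weight loss between times 0 and 1 (1). Without the replicate block of animals the counts were 2 from birth to 3 months (1) and 1 between post-natal crosses (0), and at most 1.5 times the main count elsewhere. With the array as replicate block, on either log ratio, 2 members were called at diet time 2 (0). Leaving out 1 animal gave 5 to 6 members for post-natal minus fetal, 0 to 2 for 135 minus 60 days, 1 to 3 for 195 minus 135 days, 4 to 4 for birth, 0 to 2 for birth to 3 months, 3 to 3 for 3 to 20 months, 0 to 0 and 0 to 1 for fetal and post-natal crosses, 0 to 0, 1 to 2 and 0 to 0 for diet times 0, 1 and 2, 1 to 2 for diet by time, 1 to 2 within weight loss and 0 to 0 within weight growth. These ranges leave out only animals of the groups compared. Without GP672, a 135-day fetus, NNAT and DLK1 were called besides SGCE from birth to 3 months. Over all genes, median centring called 583 genes from 60 to 135 days (2266) and 410 from 135 to 195 days (3395). It called 5574 at birth (9596), 1930 from birth to 3 months (7013) and 131 from 3 to 20 months (3865). It moved the median of all genes to 0.12 for post-natal minus fetal, 0.19 at birth and 0.15 for diet by time, and the share of calls that were higher from 51.8 to 75.6% at diet time 1, from 50.7 to 82% for diet by time from 61.6 to 71.8% within weight loss, from 62.7 to 16.3% within weight growth, from 48.8 to 33.1% between birth and 3 months, from 48.1 to 31.6% between 60 and 135 days and from 43.5 to 33.2% at diet time 0. Leaving out GP663 gave 928 genes from 60 to 135 days (6.34% in place of 15.5%), and leaving out GW625 gave 2095 from 135 to 195 days (14.3%). All-gene counts ranged over alternatives from 0 to 349 (122) and 0 to 189 (3) for fetal and post-natal crosses, from 0 to 540 (517), 1371 to 4312 (2692) and 0 to 448 (0) for diet times 0, 1 and 2, and from 266 to 1695 (1520) for diet by time, with the lowest counts at time 1 and for diet by time without RL27. Within weight loss they ranged from 135 to 2008 (1902) and within weight growth from 7 to 681 (483). Where these moved, the cause was not tested. Slide as a random block and the fit without GP672 were chosen after seeing the data. After birth the raw signal of MEST, NNAT and SGCE was 5.13, 9.85 and 3.76 times background in the median channel. For the other 3 members it was 204 to 1540 times. The low signal limits the precision of the low levels and of the differences that reach them.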
